A study of Mus musculus with 23 samples.

Results

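Proximal T cell receptor signalling was followed through 9 genes, Lck, Zap70, Lat, Lcp2, Fyn, Themis, Cd2, Cd5 and Thy1, out of 22488 genes in the count table. They were taken by symbol. Expression was measured in 23 mouse libraries of a low-input RNA-seq method, EASY-RNAseq, in which oligo-dT primed cDNA is fragmented and given its adapters by Tn5 transposase. The question was how the method performs as less material goes in. The T cells were labelled spleen T cells, CD3+ in the series design, from strain C57 at 6 to 18 weeks of age. They were used at 100, 500, 1000 and 10000 cells per library (n = 3 libraries each). The other material was RNA used at 0.1 ng (n = 2 libraries), 0.5 ng, 1 ng and 5 ng (n = 3 each). Its labels give the same strain and age and name the cell line RAW 264.7, a macrophage line, while the series design describes mouse spleen, so it is called RNA here. Neither material carried a treatment or a genetic change in the labels. Whether the replicates are different animals or dilutions is not stated, so p-values measure only the spread between these libraries, which may be technical.

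When a T cell receptor binds its antigen, the kinase Lck phosphorylates the CD3 and zeta chains, and the kinase Zap70 docks there. Zap70 then phosphorylates the adaptors Lat and Lcp2 (the protein SLP-76), which gather the enzymes that raise calcium and activate Ras. Fyn is another Src family kinase of the pathway, Themis is an adaptor that is best known from thymocyte selection, Cd2 is an adhesion and costimulatory receptor, Cd5 is an inhibitory coreceptor, and Thy1 is a small lipid-anchored surface protein that marks mouse T cells. Lck, Zap70 and Themis are largely restricted to T cells and a few related lymphocytes, whereas Fyn and Lcp2 are also used in myeloid cells and platelets, and Cd2 is also found on mouse B cells.

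The 4 promoter windows printed here come from Lck, Cd5 and Fyn, and how alike they are was not measured. Lck was chosen as a textbook case of a gene with a proximal and a distal promoter. Cd5 and Fyn were chosen because the difference between the materials described further on was larger for Cd5 than for Fyn. Promoter sequence was found for 7 of the 9 members in RefSeq's set for GRCm38.p6, all but Cd2 and Thy1, in 11 windows of 250 bases upstream of a start. Each is written 5′ to 3′ on the strand of its gene in lower case, with the searched letters GGAAGT (an ETS factor core) and TGTGGT (a RUNX core) in capitals.
Lck, downstream start, chr4:129558373-129558622, minus strand: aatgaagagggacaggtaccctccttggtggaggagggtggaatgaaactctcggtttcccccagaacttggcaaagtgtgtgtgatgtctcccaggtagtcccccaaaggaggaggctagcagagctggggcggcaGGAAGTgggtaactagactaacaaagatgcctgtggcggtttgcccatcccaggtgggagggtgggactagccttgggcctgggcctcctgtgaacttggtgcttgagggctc
Lck, upstream start, chr4:129573642-129573891, minus strand: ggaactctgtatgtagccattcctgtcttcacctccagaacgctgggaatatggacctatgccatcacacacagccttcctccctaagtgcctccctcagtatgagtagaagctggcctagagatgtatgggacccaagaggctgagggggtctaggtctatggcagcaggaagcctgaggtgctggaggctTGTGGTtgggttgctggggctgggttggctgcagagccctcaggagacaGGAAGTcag
Cd5, chr19:10738975-10739224, minus strand: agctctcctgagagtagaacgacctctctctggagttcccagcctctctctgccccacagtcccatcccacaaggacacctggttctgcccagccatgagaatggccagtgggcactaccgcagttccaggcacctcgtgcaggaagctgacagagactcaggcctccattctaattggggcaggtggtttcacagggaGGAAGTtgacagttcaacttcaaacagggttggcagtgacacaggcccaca
Fyn, chr10:39369549-39369798, plus strand: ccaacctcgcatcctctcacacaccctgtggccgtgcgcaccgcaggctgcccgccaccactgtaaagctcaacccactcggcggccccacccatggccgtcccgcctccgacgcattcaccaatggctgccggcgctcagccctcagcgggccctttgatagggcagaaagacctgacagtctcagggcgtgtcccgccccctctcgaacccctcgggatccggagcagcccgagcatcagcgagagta
Both strands were searched. GGAAGT was present in 4 of the 11 windows, in both Lck windows, 1 of Zap70 and that of Cd5, against 19.7% of 32851 windows of the same length. TGTGGT was present in 2 of the 11, the upstream window of Lck and 1 of Zap70, against 14.0%, and TATAAA in 0, against 12.4%. The matched letters do not overlap each other. Both Zap70 matches lay in the same window, the only one whose bases after the start were not found in a GENCODE M21 transcript of its gene. The windows of Themis overlap each other, so the 11 are not all separate. The windows of Lat, Lcp2, Fyn and Themis held none of the searched letters, although Lat had the largest difference between the materials at the largest inputs. Whether matches go with that difference was not tested. A match describes letters in the window only, and the gene counts do not separate the starts of a gene.

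The T cell libraries held 1849181 to 3760980 counts and the RNA libraries 1737067 to 7908638, and a member held between 139 and 3951 counts in a library. Values are CPM, counts scaled by the total of the library. Replicate 3 of the 100-cell group stood apart from the other T cell libraries. Counts of 10 B cell marker genes ran from 0.0284% to 0.436% of the library within that group, and 8 neutrophil markers from 0.00229% to 0.187%, with the highest values in replicate 3. The B cell markers took 0.0657% ± 0.00195 (SD, n = 3) at 500 cells, 0.0401% ± 0.00153 at 1000 and 0.0456% ± 0.00236 at 10000. The RNA libraries carried the markers of many spleen cell types: B cell markers took 0.840% ± 0.00340 at 5 ng, 9 macrophage markers 0.303% ± 0.00301, 8 neutrophil markers 0.465% ± 0.0111, 7 erythroid markers 0.446% ± 0.000909 and 10 T cell markers, which hold no member but include the CD3 and zeta genes, 0.122% ± 0.00269. The T cell markers took 0.478% ± 0.0173 at 10000 cells. In both of these groups none of those markers was at 0 in every library. In bulk libraries like these, fewer cells of a type and less RNA per cell cannot be told apart.

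All 9 members were detected in every library, and their summed level was higher in every T cell library than in any RNA library. It was 3536 ± 722 CPM (SD) at 100 cells, 3919 ± 91.4 at 500, 4032 ± 32.0 at 1000 and 4439 ± 133 at 10000 (n = 3 each). Without replicate 3 of the 100-cell group, the lowest, that group's sum was 3953 ± 22.7 (n = 2). In RNA the sum was 1246 ± 99.6 CPM at 0.1 ng (n = 2), 1310 ± 44.6 at 0.5 ng, 1354 ± 79.1 at 1 ng and 1395 ± 21.8 at 5 ng (n = 3 each). The lowest T cell library, at 2703 CPM, thus lay above the highest RNA library, at 1434.

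Levels between genes were compared per kilobase of exon, with the merged exon lengths of GENCODE M21, which run from 1741 bases in Cd2 to 11682 in Themis. In 10000 T cells Lck was highest at 373 CPM per kb, followed by Thy1 at 258, Lat at 226 and Cd2 at 148. Fyn followed at 106, Zap70 at 97.5, Cd5 at 88.7, Lcp2 at 73.0 and Themis at 14.7. No 2 neighbours in that order overlapped between their 3 libraries. This spread does not include any error in the exon lengths, and which transcripts were present was not examined. Without scaling by length Cd2, at 257 CPM, stood above only Themis, at 172. At 100 cells the order was nearly the same, but 6 of the 8 neighbouring pairs overlapped, and only Lck at the top and Themis at the bottom were set apart.

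The order differed in 5 ng RNA. Lck at 94.2 CPM per kb and Cd2 at 92.2 overlapped at the top, and Thy1 followed at 78.5, Fyn at 50.2 and Lat at 45.0. Lcp2 at 32.3 overlapped with Zap70 at 27.6, and Cd5 at 20.8 and Themis at 4.43 were lowest. Cd2 therefore moved from the fourth place to the second and Lat from the third to the fifth. Lck stood 3.53 ± 0.111 (SD, n = 3) times above Fyn per kilobase in 10000 T cells and 1.88 ± 0.169 times in 5 ng RNA. Exons of Lcp2 share 282 bases with those of 4930469K13Rik on the opposite strand, and whether the counting used strand is not given in the sources used here, so reads of that stretch cannot be told apart.

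**Figure D1:**
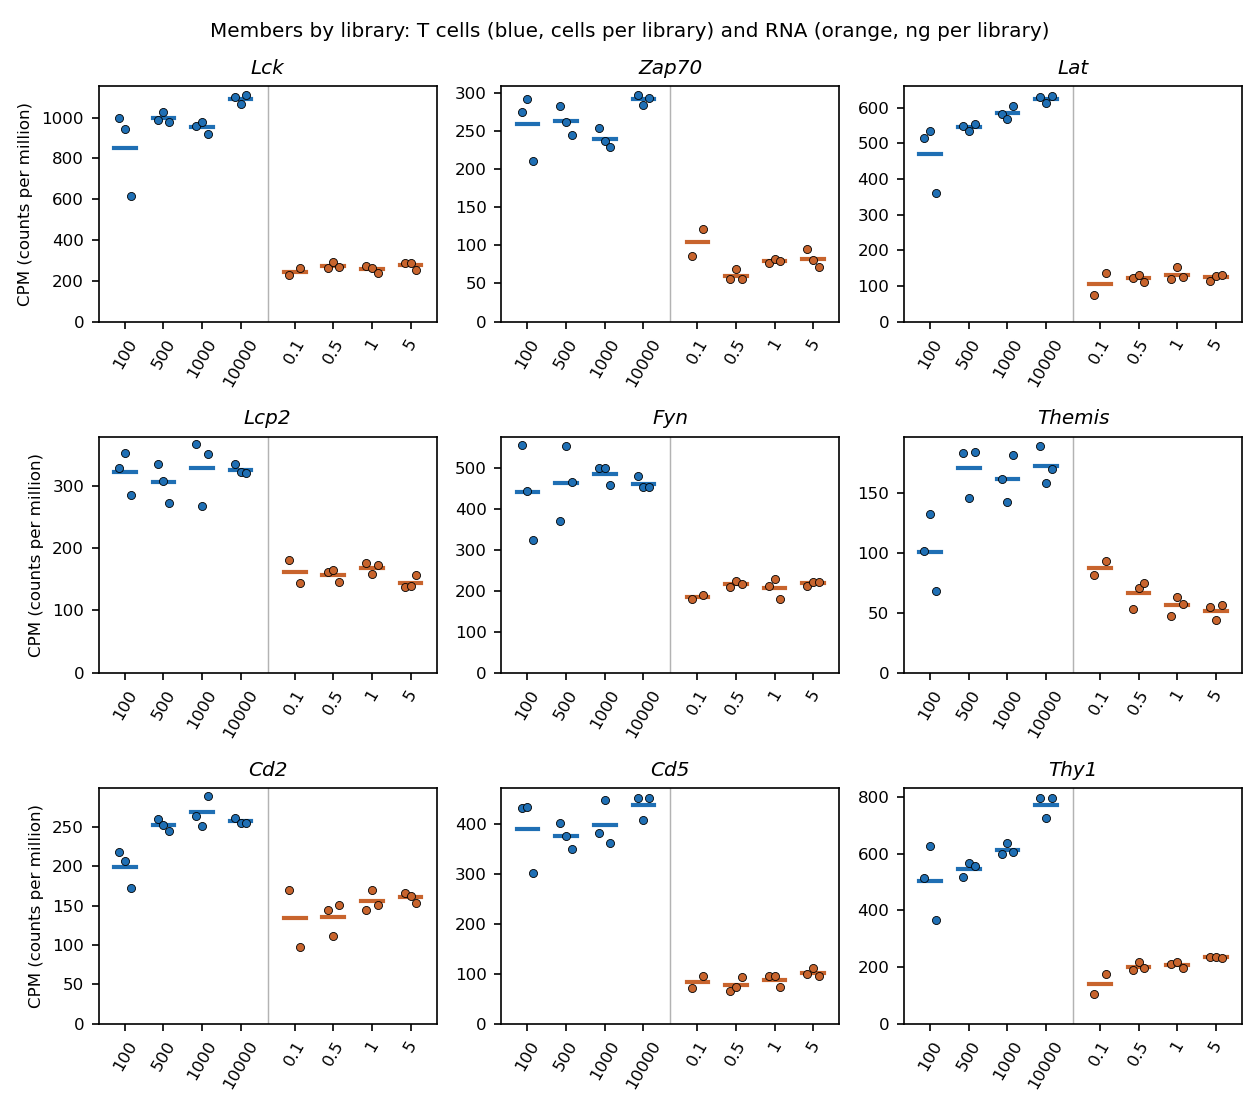
CPM (y axis, from 0, on a scale of its own in each panel) of the 9 members in every library, by cells per library (100 to 10000, blue) or ng RNA per library (0.1 to 5, orange); points are libraries and bars group means. Except for Themis at 100 cells, every T cell library lies above the RNA libraries of the matched input, and replicate 3 of the 100-cell group, drawn rightmost, is the lowest of its 3 in every panel.

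The surface receptors were taken first. Cd5, the inhibitory coreceptor, measured 451, 408 and 453 CPM in the 3 libraries of 10000 T cells and 99.5, 111 and 96.1 in those of 5 ng RNA. Thy1 measured 797, 727 and 798 CPM in 10000 T cells and 236, 236 and 233 in 5 ng RNA. Both genes were far apart in the 2 materials, with no overlap. Cd2, the adhesion receptor, measured 261, 255 and 255 CPM in 10000 T cells and 166, 162 and 153 in 5 ng RNA. It too did not overlap, but its lowest T cell value was much nearer to its highest RNA value.

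The log2 fold changes of 10000 T cells over 5 ng RNA were 1.98 (SE 0.0652) for Cd5, 1.61 (SE 0.0510) for Thy1 and 0.57 (SE 0.0662) for Cd2. Their adjusted p-values in edgeR's quasi-likelihood test were 5.98e-36, 8.36e-37 and 4.29e-11. The ligand of mouse Cd2 is Cd48, which is carried by most blood cells, and Cd48 had a lower level in T cells, with a log2 fold change of -0.21 (SE 0.0808, adjusted p = 0.0241 in the same test).

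Among the kinases, Lck measured 1102, 1067 and 1110.2 CPM in 10000 T cells and 288, 287 and 252 in 5 ng RNA. Zap70 measured 297, 284 and 294 CPM in T cells and 95.0, 80.5 and 71.9 in RNA. Fyn measured 479, 453 and 454 CPM in T cells and 212, 222 and 222 in RNA. The groups did not overlap for any of these kinases, and in proportion the gap was narrowest for Fyn. The log2 fold changes were 1.88 (SE 0.0490) for Lck, 1.71 (SE 0.0768) for Zap70 and 0.97 (SE 0.0560) for Fyn, with adjusted p-values from edgeR of 2.41e-41, 7.14e-29 and 2.42e-23.

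Of the adaptors, Lat, the membrane scaffold, measured 630.5, 615 and 633 CPM in 10000 T cells and 115, 128 and 130.4 in 5 ng RNA. Lcp2, which Lat recruits, measured 334, 322 and 321 CPM in T cells and 137, 139.6 and 156 in RNA. Themis measured 189, 158 and 169 CPM in T cells and 54.8, 43.8 and 56.5 in RNA. No adaptor overlapped between the materials. The log2 fold change was 2.22 (SE 0.0582) for Lat, the highest of the 9, 1.62 (SE 0.0969) for Themis and 1.06 (SE 0.0655) for Lcp2, with adjusted p-values from edgeR of 3.25e-41, 1.02e-22 and 4.44e-22.

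All 9 members were thus called higher in 10000 T cells at an adjusted p under 0.05, where 28.7% of the 14425 genes tested were higher. Their groups did not overlap for 9 of 9, against 36.3% of all genes in that direction. The median log2 fold change was 1.62 over the members and 0.03 over all genes. At 1000 cells against 1 ng RNA 9 of 9 were called higher, against 20.1% of genes, and 9 of 9 did not overlap, against 26.1%. At 500 cells against 0.5 ng RNA 9 of 9 were called higher, against 19% of genes, and 9 of 9 did not overlap, against 25.8%. The members' medians were 1.55 and 1.43 in these comparisons, where all genes had medians of 0.04 and 0.06. Markers of several other cell types moved in the opposite direction. All 10 B cell, 9 macrophage, 8 neutrophil and 7 erythroid markers were called lower in T cells in each of these 3 comparisons. Of all genes, 3939 of 14425, 2525 of 12656 and 2350 of 13001 were called lower there. Other lists were less uniform. Of 6 stromal markers 1 was higher and 1 lower at 10000 cells, and 2 were higher and 1 lower at 500. Of 6 NK markers 1 was higher and 5 lower at 10000 cells. At 500 cells 1 of 6 plasma cell markers was higher and 5 lower, and of 3 platelet markers tested 1 was higher and 2 lower. The part of all these markers in the members' differences was not tested.

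By member, the 1000 and 500 cell inputs gave log2 fold changes over 1 and 0.5 ng RNA as follows. Lat had 2.14 (SE 0.0952) and 2.16 (SE 0.101). Lck had 1.86 (SE 0.0739) and 1.85 (SE 0.0778). Both lay near their values at the largest input, whereas Zap70 had 1.58 (SE 0.112) and 2.12 (SE 0.141), with its highest value at 500 cells. There Zap70 measured 282, 261 and 244 CPM against 55.2, 69.3 and 55.6 at 0.5 ng, the lowest group of Zap70 in RNA. Cd5 had 2.15 (SE 0.113) and 2.26 (SE 0.133), and Cd2 had 0.78 (SE 0.103) and 0.88 (SE 0.130). Cd2 stayed the lowest of the 9 in all 3 comparisons. Differences between these inputs were not tested.

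At the lowest inputs the fold changes were of like size but less precise. In 100 cells against 0.1 ng RNA, 0 of the 9 members passed edgeR's test after adjustment, where 0.0535% of genes were called higher, and 7 members had an unadjusted p under 0.05, against 15.7% of genes. DESeq2 called 7, against 5.09%. The CPM did not overlap for 8 of the 9, against 21.1% of all genes. Lat had a log2 fold change of 2.16 (SE 0.352, adjusted p = 0.111 by edgeR) and Lck one of 1.82 (SE 0.276, adjusted p = 0.0977). Without replicate 3 of the 100-cell group, edgeR called 7 members, against 4.46% of genes, and did not call Cd2 or Themis. With all libraries Cd2 had a log2 fold change of 0.59 (SE 0.331, adjusted p = 0.415 by edgeR). Themis, the member whose CPM overlapped, measured 101, 132 and 68.1 CPM at 100 cells and 81.5 and 92.7 at 0.1 ng RNA. These ranges overlapped, and the log2 fold change was 0.23 (SE 0.393, adjusted p = 0.841 by edgeR).

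**Figure D2:**
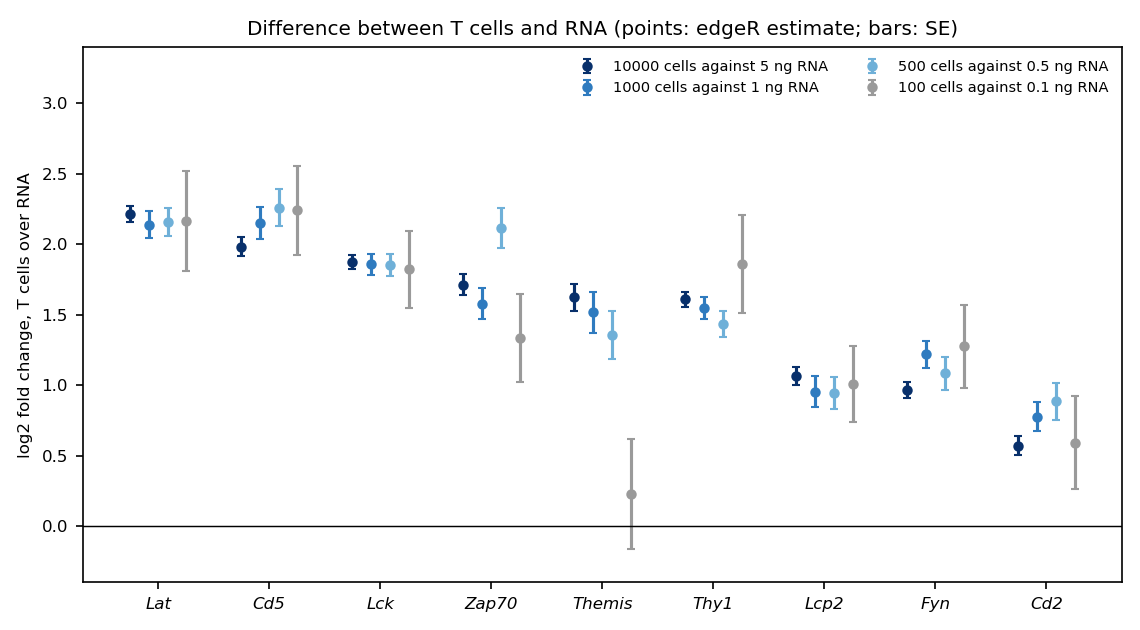
Log2 fold change of T cells over RNA (y axis) for each member (x axis, in the order of the largest input) at 4 matched inputs; points are edgeR estimates and bars standard errors. The 3 larger inputs give like values for most members, from 0.57 for Cd2 to 2.22 for Lat at the largest, while Themis at 100 cells against 0.1 ng RNA lies at 0.23.

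Whether the difference between the materials itself depended on the input was tested as an interaction between the lowest and the highest inputs. edgeR called 0 of the 9 members, against 1.14% of 17022 genes in either direction, 1 member had an unadjusted p under 0.05, against 19.1%, and DESeq2 called 1, against 8.52%. On simulated data edgeR's test of the interaction found 0% of 2-fold and 11% of 4-fold changes, so a missing call does not show a missing change. The difference for Themis was lower at the lowest input by a log2 of -1.45 (SE 0.341, adjusted p = 0.0602 in edgeR's test). Without replicate 3 of the 100-cell group it was -1.13 (SE 0.268, adjusted p = 0.0278). For Lck the interaction was -0.10 (SE 0.230) and for Lat -0.09 (SE 0.299), and without that library 0.18 and 0.16, which did not pass either.

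Each member was next set against the summed counts of Cd3d, Cd3e and Cd3g, which encode chains of the receptor complex itself. These 3 genes and Cd247, the zeta chain, were all higher in 10000 T cells than in 5 ng RNA, with log2 fold changes of 2.08, 2.01, 1.84 and 1.79 (adjusted p of 2.33e-31 or less in edgeR's test). The log2 ratio of Cd2 to the CD3 chains was -1.97 ± 0.16 in T cells and -0.64 ± 0.21 in RNA (SD over 12 and 11 libraries). The corresponding values for Lcp2 were -1.58 ± 0.28 in T cells and -0.53 ± 0.20 in RNA. For Fyn they were -1.05 ± 0.22 in T cells and -0.12 ± 0.16 in RNA. These ranges did not overlap between the materials: relative to the CD3 chains, RNA held more of all 3 genes in every library.

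The differences in this ratio, T cells minus RNA, were -1.33 for Cd2, -1.04 for Lcp2, -0.93 for Fyn and -0.83 for Themis. Each had a two-sided permutation p of 2e-05, the smallest that 100000 permutations give, and 4.5e-05 after adjustment over the 9 genes tested. Smaller differences were found for Thy1 (-0.47, adjusted permutation p = 0.00112), Zap70 (-0.32, 0.0422) and Lck (-0.20, 0.00681). The libraries of the 2 materials overlapped for all 3, and also for Themis. With Cd3e alone as the reference, Zap70 and Lck no longer passed (adjusted permutation p = 0.0856 and 0.0845). Lat (0.12, 0.216) and Cd5 (0.12, 0.315) did not pass. In each of the 4 matched inputs Cd2 differed by -1.22 to -1.41, Lcp2 by -0.91 to -1.17 and Fyn by -0.81 to -1.05. Themis ranged more widely, from -0.35 at the highest inputs to -1.87 at the lowest. At 10000 cells and 5 ng alone, 3 libraries against 3 cannot give an exact permutation p under 0.1.

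**Figure D3:**
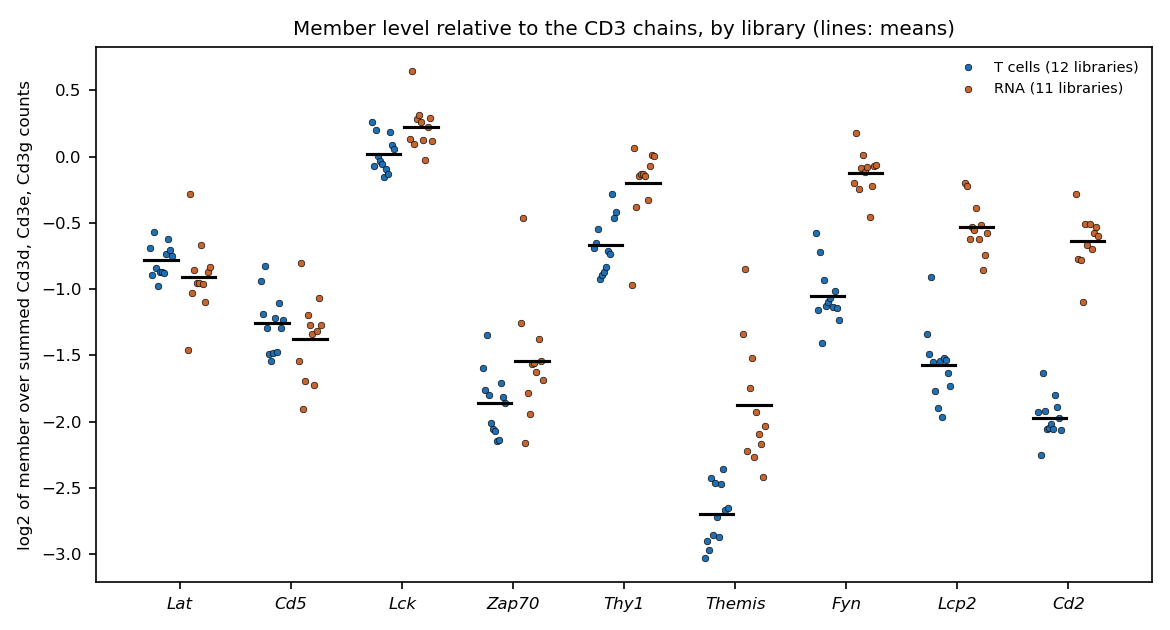
Log2 of each member's counts over the summed counts of Cd3d, Cd3e and Cd3g (y axis) in the 12 T cell (blue) and 11 RNA (orange) libraries; points are libraries and lines means. Lat and Cd5 overlap almost completely, while Fyn, Lcp2 and Cd2 lie lower in every T cell library than in any RNA library.

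Several members have a close relative that does the same step in B cells or myeloid cells. All 10 such counterparts on the list were lower in 10000 T cells, with a median log2 fold change of -3.89. Syk, which acts in place of Zap70 downstream of the B cell receptor, had -4.44 (SE 0.0699, adjusted p = 1.59e-53 by edgeR), and Blnk, the B cell relative of Lcp2, had -4.47 (SE 0.0993). Lyn, a Src family kinase of B and myeloid cells, had -4.15 (SE 0.0840) and Plcg2, the phospholipase of that pathway, -3.85 (SE 0.0845).

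Per kilobase, Zap70 stood 22.1 ± 3.51 (SD, n = 3) times above Syk in 10000 T cells and 0.305 ± 0.0396 times in 5 ng RNA. Lck stood 57.5 ± 8.02 times above Lyn in T cells and 0.870 ± 0.0677 times in RNA. Lcp2 stood 28.3 ± 3.27 times above Blnk in T cells and 0.600 ± 0.0317 times in RNA. In each of these pairs the T cell gene led in T cells and its relative led in RNA. Lat and Lat2 did not switch in this way. Lat stood 201 ± 32.3 times above Lat2 in 10000 T cells and 3.28 ± 0.621 times in 5 ng RNA, so that it led in both. At 100 cells the Zap70 to Syk count ratio ran from 0.496 to 88, with the lowest in replicate 3.

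**Figure D4:**
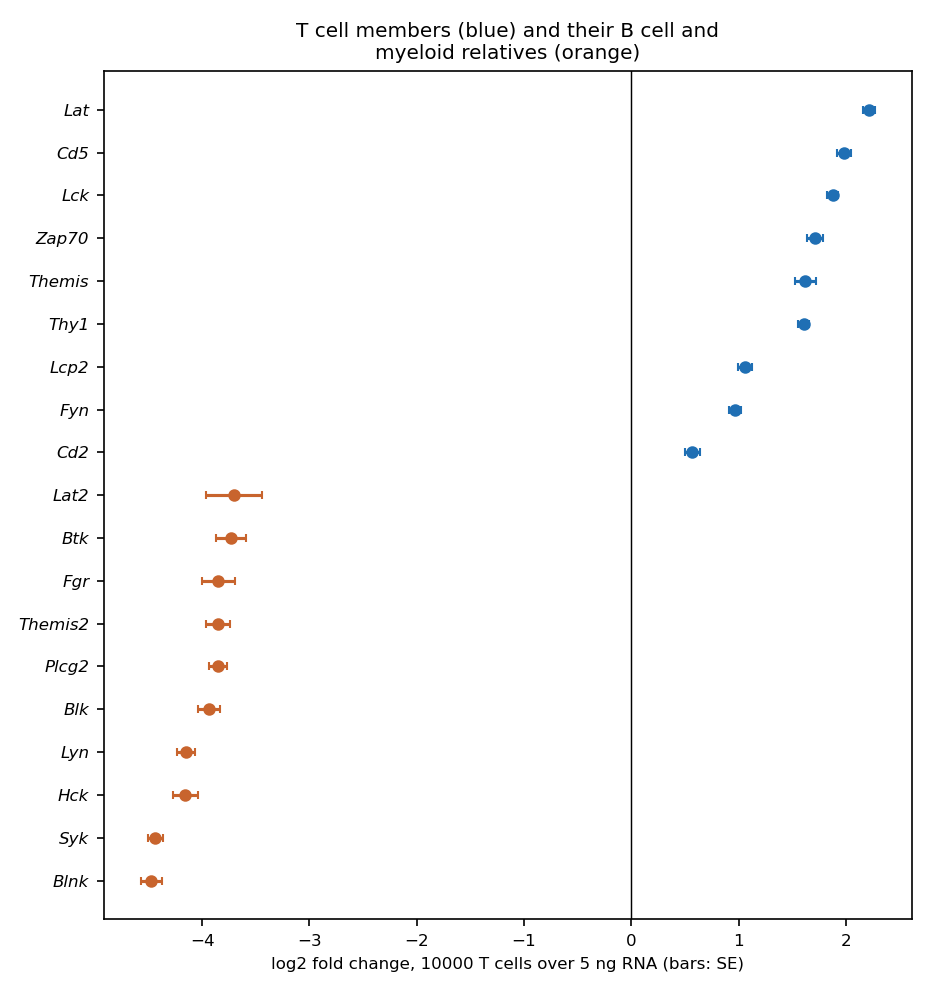
Log2 fold change of 10000 T cells over 5 ng RNA (x axis) for the 9 members (blue) and 10 relatives used by B and myeloid cells (orange); points are edgeR estimates and bars standard errors. Members run from 0.57 in Cd2 to 2.22 in Lat, relatives from -4.47 in Blnk to -3.70 in Lat2.

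Other genes of the pathway were called in both directions. Of all genes tested 28.7% were higher and 27.3% lower in 10000 T cells. Of 20 genes that act downstream of the members, 12 were higher and 6 lower in 10000 T cells (median log2 fold change 0.62). Prkcq, the protein kinase C of the synapse, rose by 1.98 (SE 0.0600) and Rasgrp1, an activator of Ras, by 1.19 (SE 0.0543). Nfatc1, a calcium-activated transcription factor, was lower at -0.23 (SE 0.0571). Each had an adjusted p of 0.000417 or less by edgeR.

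Of 16 negative regulators, 8 were higher and 5 lower in 10000 T cells (median 0.23), where 28.7% of all genes were higher and 27.3% lower. Dgka and Dgkz, kinases that remove diacylglycerol, were higher by 2.05 (SE 0.0456) and 1.21 (SE 0.0523). Ptpn6, the phosphatase SHP-1, was lower at -0.97 (SE 0.0491), and Csk, which keeps Lck inactive, at -0.24 (SE 0.0520). Each had an adjusted p of 8.06e-05 or less by edgeR. Of the 4 partner genes, Ptprc (CD45), which removes the inhibitory phosphate from Lck, was higher by 0.15 (SE 0.0317), and the integrin chain Itgb2 had 0.10 (SE 0.0466, adjusted p = 0.0724), which did not pass. Itgam, an integrin of myeloid cells, was lower at -3.70 (SE 0.234).

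Within T cells the lower inputs were compared with the same 10000-cell libraries, so the 3 comparisons share them. Thy1 was called at 2 of the 3 inputs, more than any other member. It measured 514, 629 and 366 CPM at 100 cells, 518, 567 and 556 at 500 and 599, 639 and 605 at 1000. Every one of these libraries lay below the lowest 10000-cell library, at 727 CPM. The log2 fold change was -0.51 (SE 0.0666, adjusted p = 3.99e-05 by edgeR) at 500 cells and -0.32 (SE 0.0602, adjusted p = 0.000918) at 1000. With all T cell groups in 1 fit the log2 fold changes were nearly the same, -0.52 and -0.33, but neither passed (adjusted p = 0.193 and 1.000 by edgeR). At 100 cells it was -0.63 (SE 0.176, adjusted p = 0.218), and -0.47 (SE 0.0986, adjusted p = 0.0490) without replicate 3.

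Thy1 was the only member called lower at 500 cells, where 2.48% of genes were, and at 1000 cells Lck was called as well, where 2.04% of genes were. Lck measured 957, 978 and 918 CPM at 1000 cells, below all 3 libraries of 10000 cells, with a log2 fold change of -0.19 (SE 0.0510, adjusted p = 0.0353 by edgeR). Its adjusted p lay between 0.0253 and 0.162 when each library was left out in turn, and it passed in 2 of 6 cases. At 100 cells edgeR called 0 of the 9 lower, where 0% of genes were, 5 had an unadjusted p under 0.05, against 12%, and DESeq2 called 1, against 3.05%.

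Groups that did not overlap, in the lower direction, were found for Lck, Lat, Themis, Cd2 and Thy1 at 100 cells (5 of 9, against 12.1% of genes). They were found for Lck, Zap70, Lat, Cd5 and Thy1 at 500 cells (5 of 9, against 11.6%) and for Lck, Zap70, Lat and Thy1 at 1000 cells (4 of 9, against 11.4%). The members' median log2 fold changes were -0.37, -0.14 and -0.08, with medians of 0.04, 0.03 and 0.01 over all genes. Fyn had -0.07 (SE 0.178), -0.01 (SE 0.0977) and 0.09 (SE 0.0680) at these inputs, none past the threshold. The T cell markers as a list took 0.367% ± 0.0916 of counts at 100 cells, 0.460% ± 0.0108 at 500 and 0.494% ± 0.0148 at 1000, and 6 plasma cell markers took 0.285% ± 0.0108 at 500 cells and 0.00883% ± 0.000262 at 10000. The part of these shares in the members' values was not tested.

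Themis at 100 cells had the largest estimated departure of any member from the 10000-cell level, with values of 101, 132 and 68.1 CPM against 189, 158 and 169. The groups did not overlap, and the log2 fold change was -0.79 (SE 0.239, adjusted p = 0.249 by edgeR), which did not pass. Its means at 500 and 1000 cells, 171 ± 22.0 and 162 ± 19.4 CPM, overlapped with 172 ± 15.7 at 10000.

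No other member passed edgeR's test at a lower cell number in the reported fits. DESeq2 called 4 members lower at 500 cells and 3 at 1000, where it called 7.35% and 7.58% of genes in either direction. Those included Lat (adjusted p = 0.00473 by DESeq2) and Cd5 (0.0250) at 500 cells and Zap70 (0.00868) at 1000. Lat, whose groups at 500 and 1000 cells also lay below the 10000-cell libraries, measured 515, 534 and 361 CPM at 100 cells, 549, 534 and 554 at 500 and 583, 569 and 607 at 1000. Its adjusted p by edgeR was 0.309, 0.0860 and 0.591. Without replicate 3, Lat averaged 524 ± 13.1 CPM at 100 cells (n = 2) in place of 469.9 ± 94.9 (n = 3). Zap70 measured 274, 291 and 211 CPM at 100 cells and 253, 236 and 229 at 1000, where its log2 fold change was -0.27 (SE 0.0839, adjusted p = 0.0716 by edgeR). Lcp2 measured 327, 352 and 285 CPM at 100 cells and 335, 308 and 272 at 500, and Fyn 557, 444 and 324 and 372, 553 and 465. Lcp2 and Fyn thus reached the 10000-cell level in single libraries of both inputs. Cd2 measured 218, 207 and 172 CPM at 100 cells, all below 10000 cells, and 259.5, 253 and 245 at 500, which overlapped.

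A slope over the log10 of the cell number gave 1 call among the members, Thy1, at 0.32 log2 units per 10-fold more cells (SE 0.0686, adjusted p = 0.0337 by edgeR), where 0.393% of genes were called with a rising slope. Without replicate 3 of the 100-cell group the slope was 0.25 (adjusted p = 0.0371). With each single library left out in turn it lay between 0.25 and 0.40 with an adjusted p between 0.00739 and 0.125. It missed the threshold without any one of the 10000-cell replicates and without replicate 2 or 3 of 1000 cells.

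Within RNA, edgeR called 0 of the 9 members at any lower input against 5 ng. The shares of all genes called in either direction were 11.2% at 0.1 ng, 5.09% at 0.5 ng and 0.0238% at 1 ng. Members with an unadjusted p under 0.05 numbered 3 at 0.1 ng, 5 at 0.5 ng and 2 at 1 ng, against 32.9%, 18.7% and 10.4% of all genes. DESeq2 called 2, 3 and 0 members, against 20.1%, 10.5% and 1.05% of genes, so that the counts at 0.1 ng were near the share of all genes. Thy1 measured 105 and 176 CPM at 0.1 ng, 190.4, 216 and 196 at 0.5 ng and 210.0, 219 and 196 at 1 ng, all below the lowest 5 ng library at 233 CPM. Its log2 fold changes were -0.79 (SE 0.215, adjusted p = 0.0654 by edgeR), -0.23 (SE 0.0749, 0.0821) and -0.18 (SE 0.0700, 0.380). DESeq2 called it at 0.1 ng (adjusted p = 0.0165) and 0.5 ng (0.0170). With all RNA groups in 1 fit edgeR called it at 0.1 ng (adjusted p = 0.00382), where 24.3% of genes were called. Over the 4 RNA amounts its slope was 0.38 log2 units per 10-fold more RNA (SE 0.0994, adjusted p = 0.0370 by edgeR), the only member called, where 2% of genes were called with a rising slope. With single libraries left out that slope lay between 0.24 and 0.47, with an adjusted p between 0.0274 and 0.0686, and it passed in 5 of 11 cases.

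Themis took the opposite direction in RNA. It measured 81.5 and 92.7 CPM at 0.1 ng, 53.0, 70.9 and 74.5 at 0.5 ng, 47.5, 63.4 and 57.3 at 1 ng and 54.8, 43.8 and 56.5 at 5 ng. The 0.1 ng libraries lay above every 5 ng library, and the other inputs overlapped with 5 ng. The log2 fold changes were 0.71 (SE 0.193, adjusted p = 0.0657 by edgeR), 0.35 and 0.11, and the slope was -0.45 (SE 0.129, adjusted p = 0.0503), so none passed in the reported fits. DESeq2 called Themis at 0.1 ng (adjusted p = 0.0164, 20.1% of genes called) and for the slope (0.00941, 11.9%). With all RNA groups in 1 fit edgeR called it at 0.1 ng (adjusted p = 0.0202, 24.3% of genes called).

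Members whose RNA groups did not overlap in the lower direction were Fyn and Thy1 at 0.1 ng (2 of 9, against 29.6% of genes), Zap70, Cd2, Cd5 and Thy1 at 0.5 ng (4 of 9, against 12.6%) and Cd5 and Thy1 at 1 ng (2 of 9, against 8.35%). In the higher direction they were Themis at 0.1 ng (1 of 9, against 21.4%), none at 0.5 ng (0 of 9, against 12.5%) and Lcp2 at 1 ng (1 of 9, against 8.11%). At 0.1 ng these counts lay at or under the share of all genes.

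**Figure D5:**
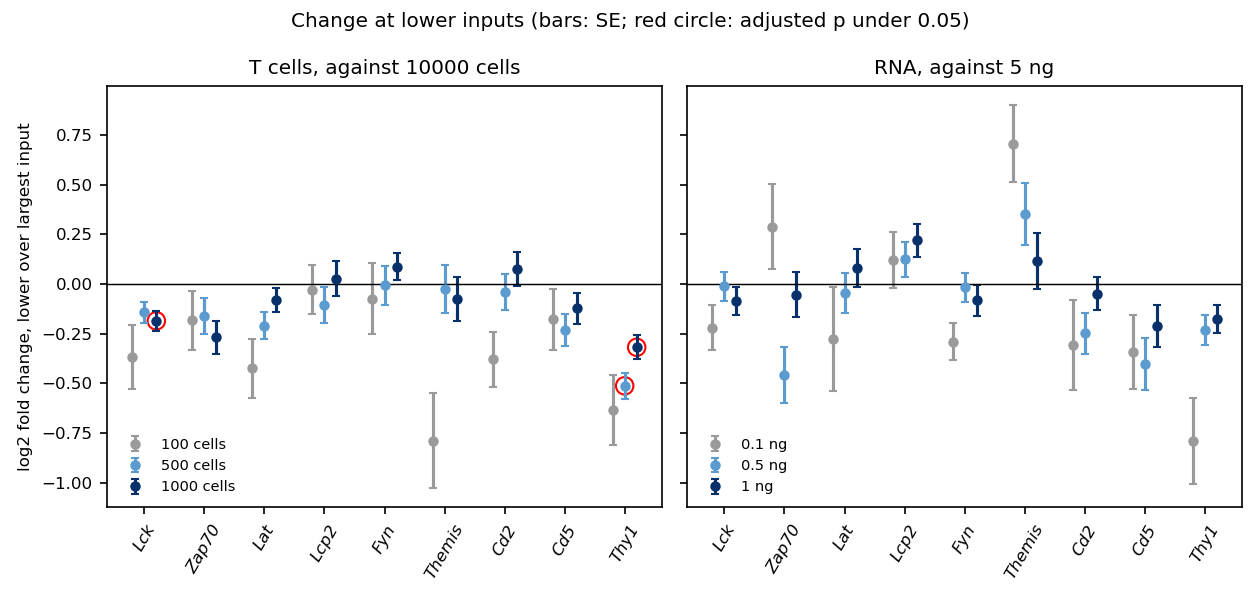
Log2 fold change of each lower input over the largest (y axis) for the 9 members, in T cells (left, over 10000 cells) and RNA (right, over 5 ng); points are edgeR estimates, bars standard errors and red circles adjusted p under 0.05. Thy1 lies below 0 at all 6 lower inputs, and Themis lies at -0.79 at 100 cells and 0.71 at 0.1 ng.

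Some other pathway genes were called within a material. At 500 against 10000 T cells the lower ones included Plcg1 (-0.37), Prkcq (-0.39) and Rasgrp1 (-0.36) among 20 downstream genes, Cbl (-0.52) and Dgka (-0.29) among 16 negative regulators, and Ptprc (-0.20), all as log2 fold changes by edgeR. At 1000 cells Plcg1 (-0.37), Cbl (-0.38) and Dgkz (-0.30) were lower, and the adaptors Fyb (0.32) and Trat1 (0.53) were higher. At 0.1 against 5 ng RNA the exchange factor Vav1 (-0.55), the adaptor Sh2d2a (-1.26) and the kinase Lyn (-0.44) were lower, and Skap1 (0.71), Ubash3b (0.93), Cblb (0.49) and Blnk (0.37) were higher. At 0.5 ng Ptpn6 (-0.19) was lower and Itgam (0.70) higher. None of the 4 CD3 and zeta genes was called at any lower input. The shares of all genes called in either direction were 0%, 3.23% and 3.27% at 100, 500 and 1000 cells. In RNA they were 11.2%, 5.09% and 0.0238% at 0.1, 0.5 and 1 ng. The median log2 fold changes of these CD3 and zeta genes were -0.41, -0.03 and 0.04 at the cell inputs and -0.35, -0.01 and 0.02 at the RNA inputs.

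The spread between replicates was as follows. The median coefficient of variation of the 9 members was 20.2% at 100 cells, 6.98% at 500, 5.23% at 1000 and 2.20% at 10000, where counting error alone gives 3.29%, 3.37%, 3.15% and 2.54%. At 100 cells that value rested on replicate 3: without it the median was 4.25% (n = 2), below those at 500 and 1000 cells. In RNA it was 21.5% at 0.1 ng, 8.85% at 0.5 ng, 8.43% at 1 ng and 7.15% at 5 ng, against 6.31%, 4.30%, 3.91% and 3.06% from counting. Counting error is given for counts as independent events, and among nonzero counts even ones made up 57.9% to 70.7% in each library, so it may be larger. Over all genes edgeR's common biological coefficient of variation fell from 0.392 at 100 cells (0.349 without replicate 3) to 0.110 at 10000, and from 0.407 at 0.1 ng to 0.0812 at 5 ng.

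Genes whose level followed the summed members most closely were named by Pearson's r of log2(CPM + 1), as a description. Over the 12 T cell libraries and 7237 genes with a mean of at least 20 CPM they were Dgka (0.964), Mks1 (0.964), Rasal3 (0.957), B4galnt1 (0.953), Ltb (0.945) and Adcy7 (0.942). Over the 11 RNA libraries and 7629 genes they were L1cam (0.947), Akr1a1 (0.945), Helz2 (0.938), Themis2 (0.933), Calm3 (0.915) and Sarnp (0.913). The lists share no gene, and the points share their input amounts and library totals. In T cells, replicate 3 of the 100-cell group had the lowest sum.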

How the data were processed

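The deposited table holds whole-number counts per gene symbol for 23 libraries, with no normalization by the authors. Per the submitters' processing notes, the tools were HISAT2 2.1.0 and featureCounts, with the genome build mm8. Strand settings are not given in the sources used here. All 22488 genes were read, and no library was left out unless stated. The members and gene lists were chosen with earlier results of these data known.

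Tests used edgeR 4.0.16 in R 4.3.3 on these counts, with TMM scaling, filterByExpr and the quasi-likelihood test. P-values were adjusted by the Benjamini-Hochberg method over all genes tested and called under 0.05. A fit held only the groups compared, and the slopes and the interaction held all groups they name. Inputs of cells and RNA were matched by rank, and are not equal amounts of RNA. Ratios to the CD3 chains used a pseudocount of 0.5 and 100000 permutations of 12 against 11 libraries with SciPy 1.17.1. Exon lengths came from GENCODE M21, where 22391 symbols (99.6%) matched, and promoters from RefSeq on GRCm38.p6, so no coordinate of the files' build is printed.

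Named genes were the 9 members, the 4 highest genes by mean CPM of each pathway list and every list gene called within a material, and the 6 genes most like the summed members. A gene that the rule names is not reported here. Same-numbered libraries did not pair: residuals of 28 pairs correlated at -0.0163 to 0.0203, with 0 above 0.1. On simulated data for 10000 cells against 5 ng, 67% of 2-fold and 88% of 4-fold changes were found, and for 100 cells against 0.1 ng 0% and 4%. They were 8% and 49% for 100 against 10000 cells, 10% and 38% for 0.1 against 5 ng and 0% and 11% for the interaction. Alternatives were DESeq2 1.42.0, DESeq2 size factors, library totals alone, no filter, a replicate block, 1 fit per material and leaving out each library.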

Additional observations from a re-analysis of the deposited data

How the results depend on the processing

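Of 1413 alternative values for 126 results on single members, 1277 kept their direction and their side of the threshold, 69 came to pass it, 29 no longer passed and 38 changed sign. The changes of sign were in 25 results, none past the threshold in the reported fit or with the changed sign. As single libraries were left out, Themis at 100 cells against 0.1 ng RNA ran from -0.0202 to 0.45 (log2). Against 10000 cells the ranges were Fyn -0.30 to 0.085, Lcp2 -0.12 to 0.030 at 100 cells, Themis -0.099 to 0.071, Fyn -0.16 to 0.12 at 500 and Themis -0.17 to 0.0019, Lcp2 -0.067 to 0.15 at 1000. Against 5 ng they were Cd2 -0.79 to 0.0094, Lat -0.81 to 0.069, Lcp2 -0.081 to 0.25 at 0.1 ng, Lck -0.077 to 0.018, Lat -0.11 to 0.012, Fyn -0.048 to 0.0082 at 0.5 and Zap70 -0.14 to 0.056, Cd2 -0.12 to 0.00032, Lat -0.036 to 0.16, Fyn -0.16 to 0.0070 at 1. The slopes ran as Fyn -0.051 to 0.094, Lcp2 -0.013 to 0.045 over cells and Zap70 -0.20 to 0.13, Lat -0.043 to 0.24 over RNA. Without replicate 3 of the 100-cell group the interactions of Cd2, Lck, Lat and Lcp2 were 0.17, 0.18, 0.16 and 0.074, and that of Cd2 with a replicate block was 0.042. DESeq2 size factors gave 0.0083 for Lcp2 at 100 cells, 0.0042 for Fyn at 500 and -0.0024 for the Lcp2 slope over cells, where the DESeq2 test gave -0.00031. Library totals alone gave 0.0053 for Fyn at 500 cells and no filter -0.0065 for Lcp2 at 1000. All 9 members kept their call at the 3 larger inputs of T cells against RNA under every alternative run. The tools and inputs moved the other counts, and the causes were not tested. With DESeq2 the genes called were 684 at 100 cells against 0.1 ng (7 in the reported fit), 349 at 100 (0), 1037 at 500 (441) and 783 at 1000 cells (438) against 10000. They were 2963 at 0.1 (1572), 1376 at 0.5 (639) and 105 at 1 ng (3) against 5 ng, 276 (97) and 1713 (638) for the slopes over cells and RNA, and 1371 (194) for the interaction. DESeq2 called 7, 1 and 4 members at 100 cells against 0.1 ng and at 100 and 500 against 10000 cells, 2 and 3 at 0.1 and 0.5 ng, 2 for the RNA slope and 1 for the interaction. With a replicate block the genes called were 1163, 2, 392 and 19 at 100 cells against 0.1 ng, 100 against 10000 cells, and 0.1 and 1 against 5 ng, then 29 and 209 for the slopes and 18 for the interaction. The block called 7 members at 100 cells against 0.1 ng, 1 at 0.1 against 5 ng and 0 for either slope, which lost Thy1. It changed no other count of members, and the numbers do not pair the libraries. With no filter on low counts the genes called were 696, 7, 42, 188 and 1413 at 100 cells against 0.1 ng, 100 against 10000 cells, 1 against 5 ng and the slopes, and the members 6 at 100 cells against 0.1 ng, 2 at 500 cells and 3 at 0.5 ng. With all groups of a material in 1 fit the genes called were 333, 28 and 15 at 100, 500 and 1000 cells and 3386, 34 and 0 at 0.1, 0.5 and 1 ng. That fit called 2 members at 100 cells, 0 at 500, 0 at 1000 and 2 at 0.1 ng. DESeq2 size factors called 3 genes at 100 cells against 0.1 ng and 2 members for the RNA slope. With single libraries left out, the genes called ranged from 0 to 545 at 100 cells against 0.1 ng, 0 to 357 at 100, 149 to 505 at 500 and 181 to 411 at 1000 against 10000 cells. They ranged from 0 to 8075 at 0.1, 172 to 815 at 0.5 and 2 to 45 at 1 against 5 ng, and from 8 to 124 and 333 to 661 for the slopes. The members ranged from 0 to 7, 0 to 1 and 1 to 3 at 100 cells against 0.1 ng and at 100 and 1000 against 10000 cells, 0 to 7 and 0 to 2 at 0.1 and 0.5 ng, and 0 to 1 and 0 to 2 for the slopes. Where 1 library of 0.1 ng was left, it was assumed to vary like the 5 ng group. Without replicate 3 of the 100-cell group the interaction called 1148 genes and 1 member. The ratio to the CD3 chains passed for 7 members, with Cd3e alone for 5 and, at 10000 cells and 5 ng alone, for 0, where no p under 0.05 is possible. On TMM-scaled sizes the summed level was 3806 CPM at 500 cells, 3987 at 1000 cells and 1500.0 at 5 ng, and library totals alone moved the all-gene median log2 change at 10000 cells against 5 ng from 0.03 to 0.14. Library totals and no filter for the interaction, and the spread at 100 cells without replicate 3, were added after seeing the data. The fewest counts behind a member value were 139, for Cd5 at 0.1 ng RNA, and the 0.1 ng group had only 2 libraries.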

Other observations

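The make-up of the summed member level was followed as shares of the 9 genes' summed CPM, with no test. Lat, the scaffold adaptor, made up 13.3% ± 0.187 (SD, n = 3) at 100 cells, with 13.1% to 13.4% in its 3 libraries although the sum itself ran from 2703 to 3969 CPM there. Cd5 made up 11.02% ± 0.109 at 100 cells, and Lck 24.0% ± 1.28. At 10000 cells these shares were 14.1% ± 0.224 for Lat, 9.84% ± 0.303 for Cd5 and 24.6% ± 0.321 for Lck. In 5 ng RNA they were 8.93% ± 0.662, 7.33% ± 0.490 and 19.8% ± 1.18.

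Themis made up 6.99% ± 0.0759 at 0.1 ng RNA (n = 2) and 3.71% ± 0.538 at 5 ng (n = 3), with no overlap, and in T cells 2.81% ± 0.458 at 100 cells and 3.87% ± 0.256 at 10000. Thy1 made up 14.1% ± 1.49 at 100 cells, 14.0% ± 0.573 at 500, 15.2% ± 0.556 at 1000 and 17.4% ± 0.429 at 10000, so that it was highest at 10000 cells within the sum as well.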
